A study of Mus musculus with 5 samples.

Results

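The genes described here encode the proteins of the cytosolic ribosome, in mouse heart grafts that had or had not passed through cold ischemia reperfusion (I/R) injury. They were chosen by name alone, as the genes with a symbol that starts with Rpl or Rps followed by a number and, in some, 1 letter of a, x, l, y or z, together with Rplp0, Rplp1, Rplp2 and Rpsa, where a probe set of the array carried that symbol and no other. Of the 19938 genes with such a probe set, 59 were members, 37 of the large and 22 of the small subunit, and the brightest probe set stood for each gene. Each of 5 heart grafts, from C57BL/6 mice that the methods give as 8 weeks old, was put on 1 Affymetrix Mouse Gene ST array. In the I/R group (grafts 2553, 2555 and 2557) the donor heart was kept for 18 h at 4°C in UW solution, an organ preservation fluid, and then placed in the abdomen of a recipient of the same strain. In the non-I/R group (grafts 2554 and 2556) the heart was transplanted without that storage, so the controls share the surgery. Harvest was 24 h after transplantation in the labels, and at day 2 in the study's account of the arrays.

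A ribosome is built from a small subunit, which reads the mRNA, and a large subunit, which joins the amino acids, and each holds many proteins around its ribosomal RNA. The mRNAs of nearly all these proteins start with a C and a run of pyrimidines, the 5′ terminal oligopyrimidine (TOP) tract, through which the kinase mTORC1 and the RNA-binding protein LARP1 set how far they are translated. The heart has a ribosomal protein of its own, Rpl3l, which takes the place of Rpl3 in muscle, and several others have paralogs restricted to some tissues.

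The start of the transcript is shown for members with the largest differences in signal, for Rps6, the substrate of S6 kinase, and for members that hold the tract at the annotated start. Each line gives 30 bases, 15 on each side of the start, on the transcribed strand of the GRCm38.p6 assembly (RefSeq), with capitals for the first C and all pyrimidines that follow it.
Rps6 (chr4:86857353-86857382, minus strand): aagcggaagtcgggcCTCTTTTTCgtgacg
Rps15a (chr7:118116133-118116162, minus strand): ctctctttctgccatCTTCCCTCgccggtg
Rps18 (chr17:33955651-33955680, minus strand): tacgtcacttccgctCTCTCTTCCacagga
Rpl28 (chr7:4792950-4792979, plus strand): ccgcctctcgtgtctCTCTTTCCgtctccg
Rpl38 (chr11:114668565-114668594, plus strand): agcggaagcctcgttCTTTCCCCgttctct
Rpl12 (chr2:32961697-32961726, plus strand): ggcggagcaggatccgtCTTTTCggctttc
Rpl26 (chr11:68901551-68901580, plus strand): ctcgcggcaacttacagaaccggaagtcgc
Rps12 (chr10:23787195-23787224, minus strand): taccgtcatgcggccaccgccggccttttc
Rpl3l (chr17:24727811-24727840, plus strand): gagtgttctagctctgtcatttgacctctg
In Rps6, Rps15a, Rps18, Rpl28 and Rpl38 the tract begins at the first transcribed base, in Rpl12 2 bases after it, and in Rpl26, Rps12 and the first of the 2 annotated starts of Rpl3l no tract lies within 5 bases.

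Of the 59 members, 47 were matched to a promoter in the RefSeq table, used here without chromosome 18. Rpl7, Rpl8, Rpl21, Rpl23a, Rpl29, Rpl30, Rpl36, Rplp1, Rps4l, Rps14, Rps20 and Rps29 were not. A C followed by at least 4 C or T, searched on the transcribed strand only, stood at the annotated start of 10 members (21.3%), against 3.01% of 27025 genes in the table. None of 68 genes of the mitochondrial ribosome and none of 30 ribosome assembly factors had it there. Within 5 bases of the start the shares were 38.3% of the members and 21.2% of all genes. The 18 members with the tract within 5 bases had a median log2 fold change of 0.020 between the groups, with 11 higher in I/R, and the 29 without it a median of 0.11, with 23 higher. These are matches of letters at annotated starts, and start sites used in these grafts were not measured.

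The signals are log2 values made with RMA, so a difference of 1 is a 2-fold change, and a positive difference means a higher signal in I/R. Medians of the 5 arrays lay between 6.58 and 6.65. The labels do not say how the animals relate beyond 1 graft to each array, and give no batch, so the p-values cover only how far these samples spread, which may be technical. With 3 grafts against 2 an exact permutation test cannot give a two-sided p below 0.1. Leaving out graft 2554 or 2556 leaves a single control graft. The spread within a group then comes from the I/R grafts only, so a p-value there covers no spread among controls. Values are given below in the order 2554, 2556 for non-I/R and 2553, 2555, 2557 for I/R. Graft 2554 stood apart in several gene lists, most in the ribosome assembly factors, where its mean deviation was -0.61. All 18 cardiomyocyte markers (such as Mybpc3, a thick filament protein, and Fabp3, which binds fatty acids) were measured in every graft. They were all lower in I/R, by a median of 0.56 on the log2 scale, and 12 had an unadjusted p under 0.05 by limma, against 7.35% of all 21789 probe sets tested. Without graft 2554 all 18 were still lower, with a median of -0.48. In bulk tissue, fewer cells of a type and less RNA in each cell cannot be told apart.

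Most ribosomal protein genes had slightly higher signals in the I/R grafts, and the differences were small. In all, 44 members were higher and 15 lower (74.6% higher, against 45.6% of all probe sets tested), with a median log2 fold change of 0.083 against -0.0079 for all probe sets. The quartiles of the log2 fold change were -0.0035 and 0.17 for the members and -0.11 and 0.099 for all probe sets. The difference was under 0.2 on the log2 scale in 45 members (76.3%), against 68.2% of all probe sets.

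No member passed an adjusted p of 0.05 by limma, as no probe set on the array did (0%), and the lowest adjusted p among the members was 0.284. At an unadjusted p under 0.05, 3 members were higher (5.08%, against 7.64% of all probe sets) and 0 lower (against 7.35%). These 3, Rpl12, Rpl30 and Rpl26, have 1 probe set each. Their mean signals were 7.78, 8.52 and 9.25, below the members' median of 11.49. With the methods' t-test, the form their analysis of variance takes for a pair of groups, 2 were higher (3.39%, against 4.72%) and 0 lower (against 4.52%). No member reached the 2-fold criterion with an unadjusted p under 0.05, which 1.5% of all probe sets did. In these values the share of called members was no larger than that of the array as a whole. It was larger after quantile normalization, with 9 members higher (15.3%, against 8.2%). The share was near that of all probe sets in other settings. With arrays centred on their median 6 members were higher (10.2%, against 8.54%), and with array weights 6 (10.2%, against 9.43%). After cyclic loess 5 were higher (8.47%, against 7.99%).

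All 3 I/R grafts lay above both non-I/R grafts in 10 members (16.9%, against 15.8% of all probe sets), which were Rpl6, Rpl8, Rpl12, Rpl26, Rpl30, Rps3, Rps12, Rps15a, Rps19 and Rps20. All 3 lay below in 5 members (8.47%, against 16.2%), which were Rpl3l, Rpl10l, Rpl21, Rpl34 and Rpl41. This split moved with the scaling. After quantile normalization it was 27 above and 2 below (all probe sets 15.1% and 29.8%), and after cyclic loess 22 and 2 (all probe sets 17.9% and 21.2%). The number of members with a higher mean went from 44 to 51 with quantile normalization (86.4%, against 38.9% of all probe sets).

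**Figure D1:**
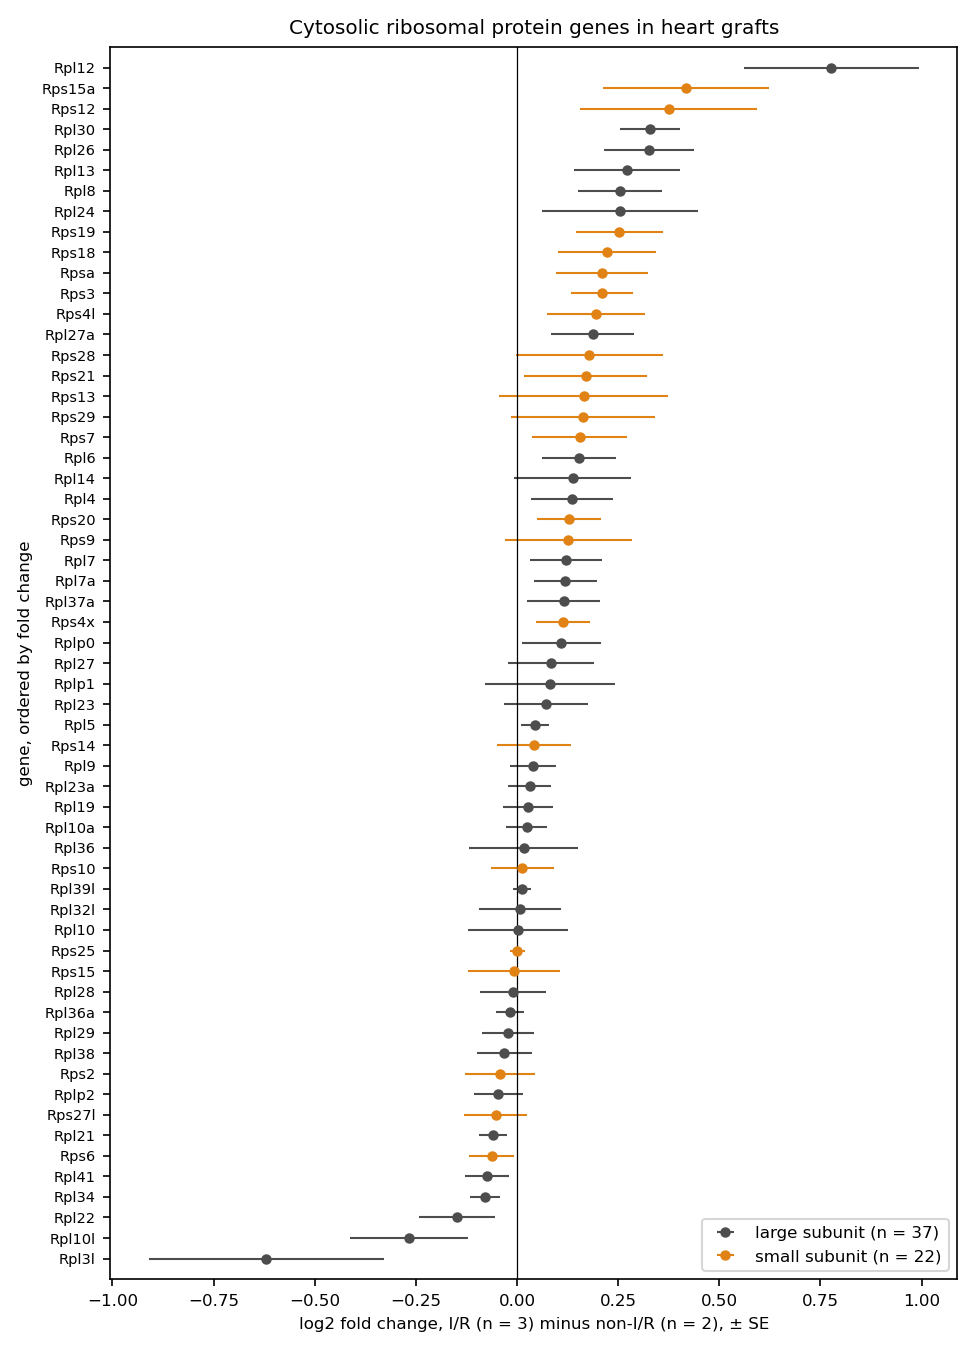
Log2 fold change of each of the 59 ribosomal protein genes, I/R (n = 3) minus non-I/R (n = 2), with bars of 1 SE from limma. Rpl12 at 0.78 and Rpl3l at -0.62 stand at the ends, and 45 of the 59 genes lie within 0.2 of 0.

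The grafts of a group did not behave alike. The mean deviation of the 59 members from their own means over the 5 grafts was -0.075 in graft 2554 and -0.033 in graft 2556, the controls. It was -0.067 in I/R 2553, 0.069 in I/R 2555 and 0.11 in I/R 2557. Graft I/R 2553 therefore lay with the controls, and the higher signals came from the other I/R grafts. The lowest of the 5 values was that of I/R 2553 in 24 members and that of non-I/R 2554 in 22, and the highest was that of I/R 2557 in 30 and of I/R 2555 in 17.

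Single grafts decided the counts. Without I/R 2553 the number of members higher at an unadjusted p under 0.05 by limma went from 3 to 13 (22%, against 6.53% of all probe sets), and that of members with all I/R grafts above the controls from 10 to 31 (52.5%, against 19.7%). The count of members higher at that p was 0 on leaving out graft 2554 (all probe sets 4.65%), 1 on leaving out 2555 (6.44%) or 2557 (4.7%), and still 3 on leaving out 2556 (8.32%). Members above the controls in all I/R grafts numbered 24 when graft 2556 was left out (40.7%, against 25.5%), and members below them 8 when 2554 was (all probe sets 24.1%) and 8 when 2557 was (20.5%). The median log2 fold change was 0.14 without graft 2553, 0.065 without 2554, 0.041 without 2555, 0.077 without 2556 and 0.018 without 2557, when 32 members were higher (54.2%, against 41.9% of all probe sets).

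In the middle range of the members' signals, the low position of I/R 2553 was not shared by other probe sets. Members outside that range, among them the brightest, were not matched in this way, and an effect on bright probe sets was not tested. Among 1300 non-member probe sets with a mean signal between 10.46 and 12.32, the range that holds the middle of the members, the mean deviation was 0.0098 in graft 2553, 0.0011 in 2554, -0.11 in 2555, 0.044 in 2556 and 0.055 in 2557. The 29 members in that range had -0.071, -0.095, 0.11, -0.049 and 0.10 in the same order. In I/R 2555 the members were thus above their means where the other probe sets were below theirs. The median log2 fold change was 0.12 for these 29 members, with 86.2% higher, and -0.0066 for the 1300 others, with 49.2% higher.

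Among the proteins of the large subunit, 26 of 37 members were higher, with a median of 0.040. The largest difference of all members was that of Rpl12, a protein at the base of the stalk that recruits elongation factors. Its log2 signal was 7.36 and 7.28 in the controls, grafts 2554 and 2556, against 7.72, 8.26 and 8.30 in I/R 2553, 2555 and 2557. Every I/R graft lay above both controls, and I/R 2553 was the nearest to them. The log2 fold change was 0.78 ± 0.22 (SE), 1.71-fold, with an unadjusted p of 0.0247 and an adjusted p of 0.292 by limma. The call was lost on leaving out any graft but I/R 2553, with unadjusted p between 0.072 and 0.12 by limma, while the log2 fold change stayed between 0.67 and 0.82.

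The signal of Rpl12 minus the mean of the other 58 members was higher in I/R than in non-I/R by 0.70. The other proteins of the stalk differed less. Rplp0, to which the stalk's other proteins bind, had a log2 fold change of 0.11 (95% interval -0.17 to 0.38), with 13.01 and 13.04 in the non-I/R grafts and 12.97, 13.19 and 13.25 in the I/R grafts. Graft I/R 2553 was the lowest of the 5. The log2 fold change of Rplp0 was 0.24 after quantile normalization (unadjusted p = 0.012 by limma), 0.19 without I/R 2553 (unadjusted p = 0.011 by limma) and 0.055 without I/R 2557. Over the 4 members of the stalk and its base, 3 were higher and 1, Rplp2, was lower.

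Rpl30, a large subunit protein that in yeast restrains the splicing of its own transcript, had log2 signals of 8.26 and 8.39 in the controls against 8.61, 8.75 and 8.61 after I/R. All I/R grafts lay above both controls, and it had the smallest p of the members. The log2 fold change was 0.33 ± 0.073 (SE), with an unadjusted p of 0.0121 and an adjusted p of 0.284 by limma. The call was lost without non-I/R 2554 (0.26, unadjusted p = 0.066 by limma). The same value to the last digit in I/R 2553 and I/R 2557 is 1 of many ties in the deposited table, which touch 19 members (32.2%) and 53.8% of all probe sets.

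Rpl26, which lies at the rim of the peptide exit tunnel and also binds the mRNA of the tumour suppressor p53, had log2 signals of 9.01 and 9.10 in the controls against 9.20, 9.45 and 9.49 after I/R. The I/R grafts lay above both controls, I/R 2553 by the least. The log2 fold change was 0.33 ± 0.11 (SE), with an unadjusted p of 0.0449 and an adjusted p of 0.324 by limma, and on leaving out single grafts the call held only without I/R 2553. Without each of the other 4 grafts in turn, its log2 fold change stayed between 0.27 and 0.37. Of the 5 members at the exit tunnel and its rim, 4 were higher and 1 was lower. The lower one was Rpl22, an RNA-binding protein, with 8.54 and 8.82 in the controls against 8.54, 8.54 and 8.51 after I/R. A single control graft, 2556, made the difference of -0.15 (unadjusted p = 0.197 by limma). The difference was -0.0074 without that graft and -0.29 without graft 2554.

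Rpl5, which with Rpl11 and the 5S ribosomal RNA forms the particle that binds Mdm2 when assembly fails, was among the steadiest members. It had 11.90 and 11.97 in the non-I/R grafts and 11.95, 11.99 and 12.004 in the I/R grafts, a log2 fold change of 0.044 (95% interval -0.053 to 0.14), and of 0.012 without graft 2554 and 0.076 without 2556. Rpl11, Rpl13a, Rps27a and Rpl3 had no probe set that carries their symbol alone and were not analysed here.

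**Figure D2:**
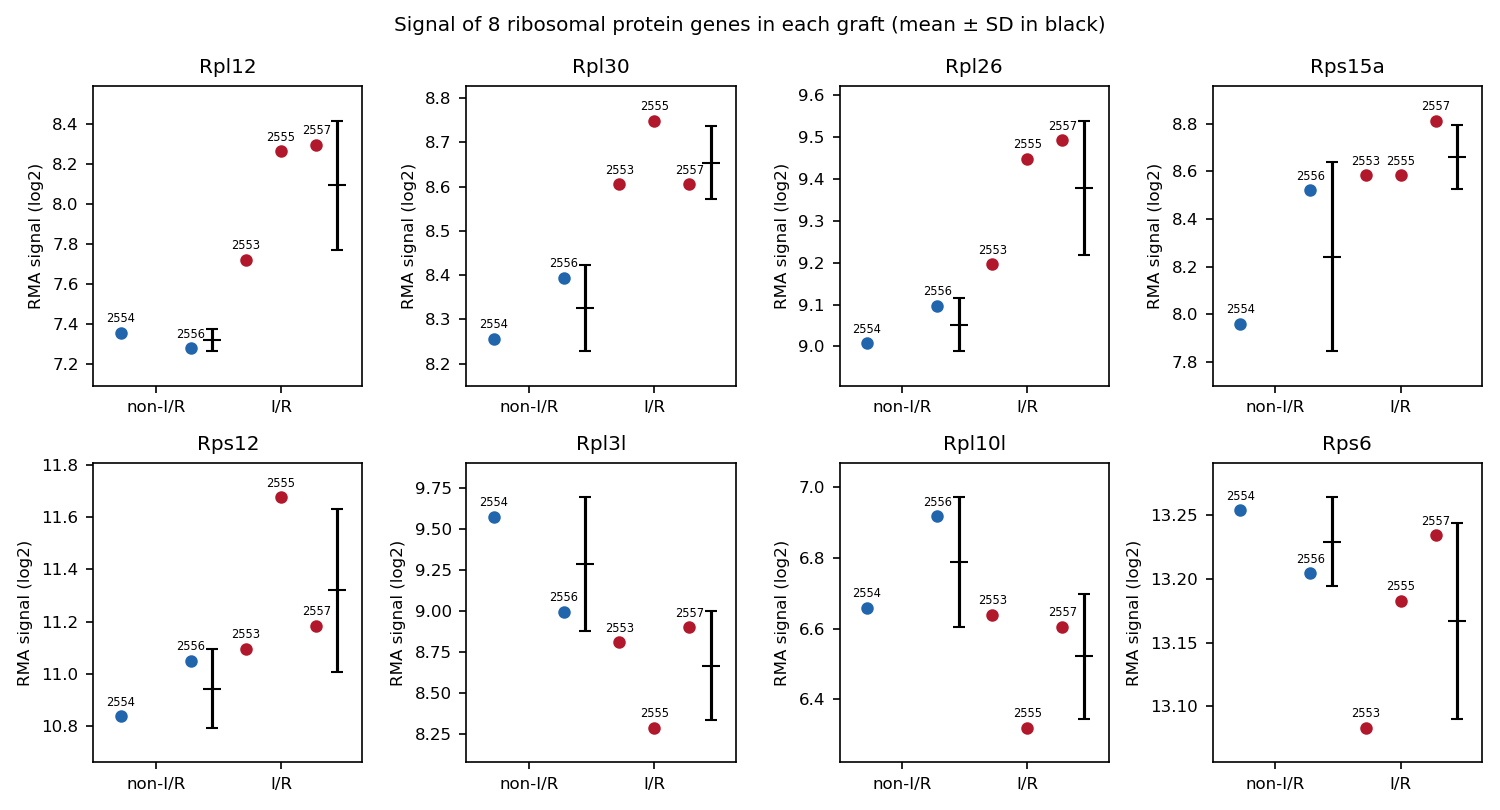
RMA signal (log2) of 8 ribosomal protein genes in each graft, with blue points for controls and red points for I/R, the graft number beside each point and the mean ± SD in black. The vertical axes differ between genes and do not start at 0. In Rpl12, Rpl30, Rpl26, Rps15a and Rps12 all red points lie above both blue points, in Rpl3l and Rpl10l all lie below, and in Rps6 the groups overlap.

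Among the proteins of the small subunit, 18 of 22 members were higher, with a median of 0.16. In 0 of them the unadjusted p was under 0.05 by limma (all probe sets 7.64% higher and 7.35% lower). In 5 of the 22 the I/R grafts lay above both controls (against 15.8% of all probe sets) and in 0 below (against 16.2%). The difference between the subunits was not tested. Rps15a, a small subunit protein, had log2 signals of 7.96 and 8.52 in the controls against 8.58, 8.58 and 8.81 after I/R. The groups do not overlap, but non-I/R 2556 lay close to the I/R grafts and non-I/R 2554 far below. The difference was 0.42 ± 0.21 (SE, unadjusted p = 0.115 by limma), and 0.14 without non-I/R 2554. Without non-I/R 2556 it was 0.70.

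Rps12, a small subunit protein at its beak, had 10.84 and 11.05 in the controls against 11.10, 11.68 and 11.19 after I/R. Graft I/R 2555 was far above the rest, and I/R 2553 only just above non-I/R 2556. The mean difference was 0.37 ± 0.22 (SE, unadjusted p = 0.165 by limma), and 0.20 without I/R 2555. It was the member with the most probe sets, 14, and all were higher in I/R, by 0.30 to 0.41.

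Rps6 did not share the direction of its subunit. Its log2 signal was 13.25 and 13.20 in the controls against 13.08, 13.18 and 13.23 after I/R. The groups overlap, with I/R 2557 between the controls. The log2 fold change was -0.063 (95% interval -0.22 to 0.097), and 0.10 after quantile normalization, so its sign depended on the scaling. All 8 of its probe sets were lower as deposited, by 0.055 to 0.090 on the log2 scale. Of the 7 members along the path of the mRNA through the small subunit, 5 were higher and 2 lower, and in 1 of them, Rps3, the groups do not overlap.

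The paralogs were mixed in direction, and their difference from the other members was not tested. Of 5 measured from the list of paralogs, 2 were higher and 3 lower, with a median of -0.053. The other 54 members had a median of 0.11 and 42 higher. They include Rpl32l (log2 fold change 0.0069), which was not on that list. Rpl3l, the muscle paralog of Rpl3, had the lowest fold change of all members. Its log2 signal was 9.57 and 8.99 in the controls against 8.81, 8.29 and 8.90 after I/R. All I/R grafts lay below both controls, but non-I/R 2556 was only just above I/R 2557, and the spread within the groups was wide. The log2 fold change was -0.62 ± 0.29 (SE, unadjusted p = 0.103, adjusted p = 0.424 by limma, 95% interval -1.44 to 0.20). It was -0.33 without graft 2554 and -0.91 without graft 2556. Relative to the mean of the other 58 members, Rpl3l was lower in I/R than in non-I/R by a difference of -0.72.

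The order of the grafts by Rpl3l was the order by the cardiomyocyte markers. The mean deviation of those 18 markers was 0.47 in graft 2554, 0.29 in graft 2556, -0.078 in I/R 2557, -0.26 in I/R 2553 and -0.43 in I/R 2555, and the Rpl3l signals, from 9.57 down to 8.29, stood in the same sequence. The part of a changed share of muscle RNA in the Rpl3l signal was not tested. Rpl3 itself was not analysed here, so the exchange between the paralogs could not be followed.

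Rpl10l, a paralog of Rpl10 known from the testis, had 6.66 and 6.92 in the controls against 6.64, 6.32 and 6.61 after I/R, a log2 fold change of -0.27 (unadjusted p = 0.143 by limma). The I/R grafts were below both controls, I/R 2553 by very little. The value was -0.40 without graft 2554, -0.17 without 2555 and -0.14 without 2556. Its partner Rpl10 had a log2 fold change of 0.0027 (95% interval -0.35 to 0.35). The difference between Rpl10l and Rpl10 changed by -0.27 between the groups (two-sided exact permutation p = 0.3, adjusted p = 0.6 over the 2 pairs compared).

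Rps4l, which the RefSeq table lists as a transcribed pseudogene, had a log2 fold change of 0.20 and its partner Rps4x of 0.11. Its signal was 8.24 in non-I/R 2554 and between 8.59 and 8.62 in the other 4 grafts. The log2 fold change of Rps4l was 0.016 without graft 2554 and 0.38 without 2556. Rps4x had 0.17 without graft 2553 (unadjusted p = 0.031 by limma) and 0.069 without 2557. The difference between Rps4l and Rps4x changed by 0.081 (two-sided exact permutation p = 0.7, adjusted p = 0.7), and by -0.083 without graft 2554 and 0.25 without 2556. Rps27l, a paralog of Rps27 and a target of p53, had 11.35 and 11.37 in the controls against 11.42, 11.19 and 11.30 after I/R, a log2 fold change of -0.053 (95% interval -0.27 to 0.17). Graft I/R 2553 was the highest and I/R 2555 the lowest, on either side of the controls. Rpl39l, a testis paralog of Rpl39, had a log2 signal of 4.28 in 4 grafts and 4.31 in I/R 2553.

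After Rpl3l, Rpl10l and Rpl22, the largest negative differences were those of Rpl34 and Rpl41, proteins of the large subunit. Rpl34 had 10.72 and 10.71 in the controls against 10.63, 10.69 and 10.60 after I/R, a log2 fold change of -0.079 (unadjusted p = 0.101 by limma), and of -0.11 without I/R 2555 (unadjusted p = 0.020 by limma). Rpl41, the smallest protein of the ribosome, had 12.60 and 12.57 in the controls against 12.43, 12.56 and 12.54 after I/R, a log2 fold change of -0.074 (unadjusted p = 0.240 by limma). Their I/R grafts lay below both controls by margins that are small beside those of Rpl12, and Rpl41 turned to 0.0076 after quantile normalization.

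The size of the difference went with the signal of the probe set. The 30 members with the lower mean signals had a median absolute log2 fold change of 0.17, and the 29 with the higher signals 0.063. Over the 59 genes Spearman's rho between mean signal and absolute log2 fold change was -0.52, and between mean signal and signed fold change -0.31. These are descriptions across genes, which share arrays and are not independent. Signals of different probe sets are not levels that can be compared, and whether bright probe sets respond less on these arrays was not tested.

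**Figure D3:**
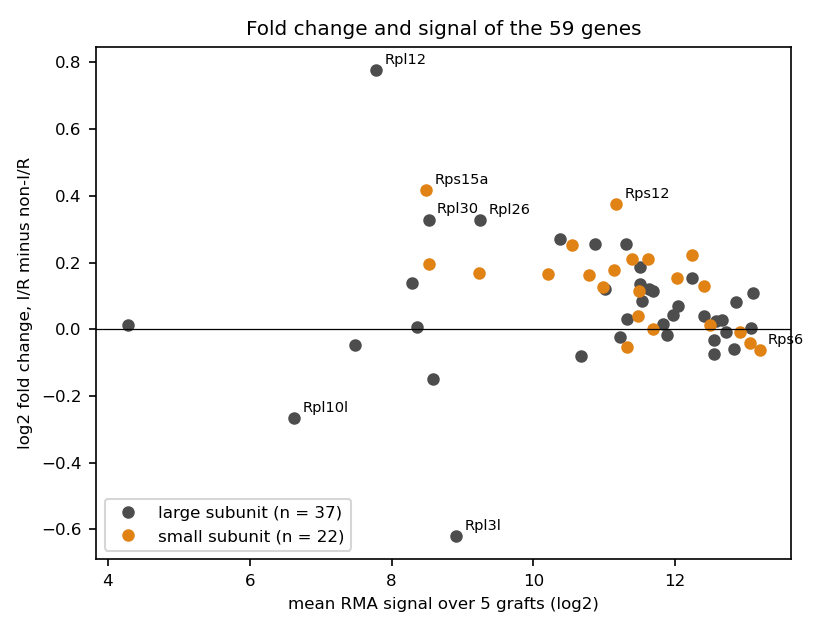
Log2 fold change (I/R minus non-I/R) of each ribosomal protein gene against its mean RMA signal over the 5 grafts (log2), coloured by subunit. Above a signal of 12 no point leaves the band between -0.074 and 0.22, while Rpl12, Rps15a and Rpl3l, at lower signals, lie farther from 0.

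Where a gene had several probe sets they mostly shared a direction, but the size could depend on the probe set. In Rps14 the brightest had a log2 fold change of 0.041 and the other 0.36, where the groups do not overlap. In Rps25 the brightest had 0.00077 and another 0.090. The 59 members had 215 probe sets, 167 of them higher in I/R and 48 lower, and 20 members had only 1. Of the 22 genes with at least 4, 19 had all probe sets on the same side of 0. Rpl13, a large subunit protein, had 9 from 0.11 to 0.31, Rpsa, a small subunit protein also known as a laminin receptor, 5 from 0.21 to 0.41, and Rpl23a, at the exit tunnel, 13 from 0.023 to 0.058. Probe sets of a gene may share probes, and ribosomal protein genes have many processed pseudogenes of nearly the same sequence, so the transcripts behind a signal are uncertain, and probe sets of a gene are not independent measurements.

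**Figure D4:**
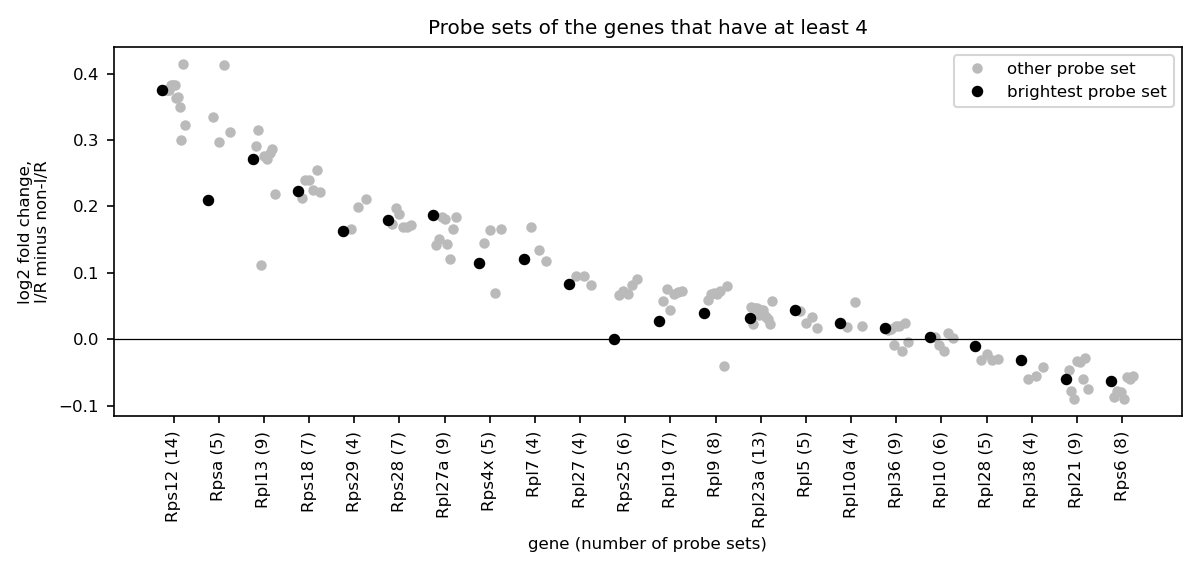
Log2 fold change (I/R minus non-I/R) of every probe set of the 22 ribosomal protein genes that have at least 4, with the probe set used for the gene in black and the others in grey. The 14 probe sets of Rps12 lie between 0.30 and 0.41 and the 8 of Rps6 between -0.090 and -0.055.

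Other genes of the ribosome pathway had larger median differences than the ribosomal proteins, and the differences between these lists were not tested. Of 36 ribosome assembly factors, which process ribosomal RNA and join it to the proteins in the nucleolus, 35 were higher in I/R, with a median log2 fold change of 0.56. In 14 they were higher at an unadjusted p under 0.05 by limma (against 7.64% of all probe sets). In 29 all I/R grafts lay above both controls (against 15.8%). Fbl, the methyltransferase fibrillarin, had 9.29 and 9.44 in the controls against 9.76, 10.09 and 10.02 after I/R (log2 fold change 0.59, unadjusted p = 0.011 by limma). Without non-I/R 2554, which leaves a single control graft, the median was 0.31, with 35 of 36 still higher. Fbl then had a log2 fold change of 0.51. I/R 2553 was above the controls here, with a mean deviation of 0.11, unlike in the ribosomal proteins.

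Of 13 genes of RNA polymerase I and its factors, 11 were higher, with a median of 0.14, and of 0.076 without graft 2554. Of 76 mitochondrial ribosomal protein genes, 66 were lower, with a median of -0.17. At an unadjusted p under 0.05 by limma 13 were lower (against 7.35% of all probe sets). In 31 all I/R grafts lay below both controls (against 16.2%). Mrpl42 had 9.71 and 9.62 in the controls against 9.14, 8.49 and 8.76 after I/R (log2 fold change -0.87, unadjusted p = 0.018 by limma). Without graft 2554, 70 of the 76 were lower, with a median of -0.12, and Mrpl42 had -0.82. The mean deviation of that list was lowest in I/R 2555 (-0.26), where the cytosolic members were above their means.

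**Figure D5:**
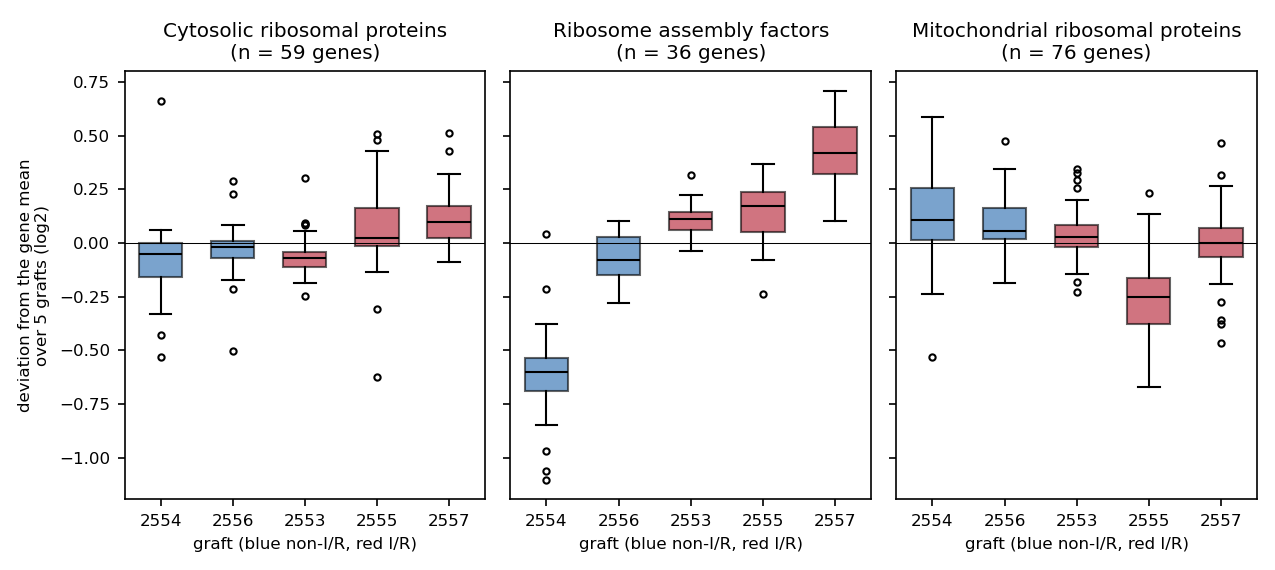
Deviation of each gene from its own mean over the 5 grafts (log2), for 59 cytosolic ribosomal proteins, 36 ribosome assembly factors and 76 mitochondrial ribosomal proteins, with blue boxes for non-I/R and red for I/R grafts. Boxes span the quartiles with the median as a line, whiskers reach 1.5 times the box and circles are genes beyond. The cytosolic ribosomal proteins of I/R 2553 lie with those of the controls, and the assembly factors of non-I/R 2554 lie far below all others.

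Genes outside the ribosome that also carry a TOP tract had a median close to that of the members. Of 13 such translation genes 10 were higher, with a median of 0.11. Pabpc1, the poly(A)-binding protein, had 11.48 and 11.71 in the controls against 12.02, 12.23 and 12.01 after I/R (log2 fold change 0.49, unadjusted p = 0.013 by limma), and the histone chaperone gene Nap1l1 had a log2 fold change of 0.37 (unadjusted p = 0.018 by limma). Without graft 2554 the median was 0.12, with 10 higher, and Pabpc1 had 0.38 and Nap1l1 0.28. Gas5 and Snhg5, TOP transcripts that host small nucleolar RNAs, had log2 fold changes of 0.27 and 0.65, and of 0.24 and 0.42 without graft 2554. Rpl7l1 and Fau, from a list of ribosomal proteins and their relatives that the name rule does not take, had 0.29 and 0.093. Of 17 genes of mTORC1 signalling and translation control, 10 were higher, with a median of 0.062. At an unadjusted p under 0.05 by limma 1 was higher (against 7.64% of all probe sets) and 0 lower (against 7.35%). That gene was Eif2ak3, a kinase of the unfolded protein response, with a log2 fold change of 0.32 (unadjusted p = 0.0089 by limma). Without graft 2554 its log2 fold change was 0.30.

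Of 16 targets of p53, 10 were higher, with a median of 0.34. At an unadjusted p under 0.05 by limma 6 were higher (against 7.64% of all probe sets) and 4 lower (against 7.35%). Without graft 2554 the median was 0.24, with 10 of the 16 higher. Among the markers of other cells, the median of the neutrophil list differed most between the groups. Of 14 neutrophil markers 11 were higher in I/R, with a median of 0.81 and a mean deviation of -0.48 and -0.34 in the controls and -0.012, 0.55 and 0.28 in I/R 2553, 2555 and 2557. As with the ribosomal proteins, I/R 2553 was the lowest I/R graft. Without graft 2554 the median of the neutrophil markers was 0.72, with 11 higher. Macrophage and monocyte markers had a median of -0.096, lymphocyte markers -0.027, fibroblast markers -0.20 and endothelial markers 0.13, and the 2 red cell genes measured had 0.11 and -0.0075. Without graft 2554 the macrophage median was 0.22, the lymphocyte median 0.017, the fibroblast median -0.044 and the endothelial median 0.16. The part of a changed mixture of cells in the signals of the ribosomal protein genes was not tested.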

How the data were processed

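Gene expression was measured in 5 heart grafts, 3 I/R and 2 non-I/R, grouped by the source name in the labels. The authors deposited log2 values that Partek made with RMA (background correction, normalization between arrays, 1 value for a probe set), in a table of 35556 probe sets; versions and the genome build of the probes are not given in the sources used here. RMA makes the distributions of the arrays alike, though in this table their medians differ, so part of a shift common to most genes may not show. Of the probe sets, 21789 have a single symbol in the platform annotation, 1621 have several and 12146 are not listed there. The gene IDs of all 59 members were found in a table of the GRCm38.p6 assembly.

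The 21789 probe sets were fitted in R 4.3.3 by lmFit and eBayes of limma 3.58.1 (prior df 0.824), with no further normalization or filter and with Benjamini-Hochberg adjustment over all of them. Steps were tested on simulated data. Named members are the paralogs and their partners, the 5 largest differences in each direction, the 3 smallest p-values in each direction, members with an unadjusted p under 0.05, and Rps6, Rplp0 and Rpl5, and of the other lists up to 3 genes with the smallest p. Others (Rpl13, Rpsa, Rpl23a, Rpl21, Rpl32l, Rps14, Rps25, those named for groups that do not overlap, and the members whose sequences are shown) were chosen after their values were seen. The members and the 15 lists were chosen with earlier results of these data known. Promoters came from RefSeq, and figures from Python 3.11.15 and matplotlib 3.10.9. The number of arrays limits the precision.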

Additional observations from a re-analysis of the deposited data

How the results depend on the processing

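Under 18 alternatives to the main setting, no member passed an adjusted p of 0.05 and none reached the 2-fold criterion. The median log2 fold change of the members stayed positive, from 0.018 to 0.14 when grafts were left out in turn, and was 0.034 without grafts 2554 and 2555. Members higher at an unadjusted p under 0.05 numbered 6 with array weights, 9 after quantile normalization, 5 after cyclic loess, 6 with arrays centred on their median, and 0 to 13 with 1 graft left out. Members lower at that p numbered 1 with array weights (1.69%, against 8.35% of all probe sets). Members with groups that do not overlap numbered 27 higher and 2 lower after quantile normalization, 22 and 2 after cyclic loess and 16 higher with the mean over a gene's probe sets, and 10 to 31 higher and 5 to 8 lower with 1 graft left out, with 8 lower without grafts 2554 and 2555. The shares over all probe sets changed with the setting too, as given above for several of these counts. Groups also separate more easily when fewer grafts remain. The change in Rps4l minus Rps4x lay between -0.083 and 0.25 with 1 graft left out. Of 323 values of named members, 313 kept their sign. The sign turned for Rpl39l (-0.029), Rpl41 (0.0076) and Rps6 (0.10) after quantile normalization, for Rps27l without I/R 2555 (-0.11 to 0.0031 with 1 graft left out), and for Rpl10 with centred arrays (-0.0060), with the mean over probe sets (-0.0018), without grafts 2554 and 2555 (-0.0029) and between -0.091 and 0.095 with 1 graft left out (-0.0044 without non-I/R 2554). The cause was not tested. Rpl26 missed an unadjusted p of 0.05 by limma after cyclic loess (0.054). Medians of the assembly factors (0.31 to 0.82) and mitochondrial ribosomal proteins (-0.21 to -0.10) kept their sign with 1 graft left out. These, and all values of gene lists without graft 2554, were chosen after seeing the data. No paired analysis was possible because the labels give no shared replicate numbers.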
